A study of Homo sapiens with 6 samples.

Results

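The interferon-stimulated and antiviral genes are a set of 57 human genes chosen by name. It holds the transcripts that interferon signalling induces, the factors that induce them and the receptors that start the signal. They were measured in U251, a human glioma line, on 3 arrays from cells with stable PARK2 overexpression and 3 from control cells with stable GFP overexpression. PARK2 codes for parkin, a ubiquitin ligase. Both lines went through viral infection with polybrene and selection in puromycin, so the control cells had met virus and drug too. Within each group the arrays are labelled as biological replicates. The labels do not say what was replicated, nor whether a line is a clone or a pool. The p-values therefore rest on the spread between these replicates, drawn in large part from other genes of like intensity, and on no other spread. Of the 57 genes, 54 had at least 1 probe set of their own on the array, 49 were bright enough to test, and 13720 genes were tested in all.

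Interferons are secreted proteins that warn cells of infection. Type I interferons bind a receptor of the subunits IFNAR1 and IFNAR2, and interferon gamma binds IFNGR1 and IFNGR2. The type I signal reaches the nucleus through a complex that holds IRF9, which binds a promoter element called the ISRE and switches on genes whose products sense, degrade or block viral RNA and proteins. Astrocytes are among the many cell types that answer type I interferon with these genes.

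The promoters of a few members are shown first, because the ISRE is the element through which type I interferon acts. Matches to it were found in genes that passed a test for a difference between the lines and in genes that missed its threshold. Each run is the 250 bases before the gene's start in RefSeq's promoter table (GRCh38.p14), 5′ to 3′ on the gene's strand. Capitals mark matches to the ISRE core, which is GAAA, then 2 bases of any kind, then GAAA again (TTTC, 2 bases and TTTC where it lies on the other strand).
IFI44L, chr1:78620198-78620447, plus strand: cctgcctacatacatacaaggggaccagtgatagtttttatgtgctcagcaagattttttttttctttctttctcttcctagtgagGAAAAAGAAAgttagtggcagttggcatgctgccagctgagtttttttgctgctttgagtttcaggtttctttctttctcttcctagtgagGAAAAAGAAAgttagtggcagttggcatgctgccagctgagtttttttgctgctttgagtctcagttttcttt
IFI44, chr1:78649539-78649788, plus strand: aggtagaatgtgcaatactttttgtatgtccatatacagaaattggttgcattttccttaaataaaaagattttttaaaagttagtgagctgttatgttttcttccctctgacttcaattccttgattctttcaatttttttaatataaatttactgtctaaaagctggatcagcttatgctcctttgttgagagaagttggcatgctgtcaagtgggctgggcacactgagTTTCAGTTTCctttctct
IFI6, chr1:27672193-27672442, minus strand: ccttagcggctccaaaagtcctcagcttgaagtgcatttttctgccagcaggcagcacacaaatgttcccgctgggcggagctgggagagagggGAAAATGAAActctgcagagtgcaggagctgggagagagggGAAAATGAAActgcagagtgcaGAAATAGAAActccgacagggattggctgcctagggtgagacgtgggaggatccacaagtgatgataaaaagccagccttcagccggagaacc
IFIT5, chr10:89414318-89414567, plus strand: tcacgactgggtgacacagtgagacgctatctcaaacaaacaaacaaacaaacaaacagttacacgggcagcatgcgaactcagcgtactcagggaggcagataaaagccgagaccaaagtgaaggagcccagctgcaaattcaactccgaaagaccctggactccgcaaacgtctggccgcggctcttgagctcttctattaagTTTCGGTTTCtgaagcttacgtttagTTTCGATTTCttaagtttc
IFIT1, chr10:89392373-89392622, plus strand: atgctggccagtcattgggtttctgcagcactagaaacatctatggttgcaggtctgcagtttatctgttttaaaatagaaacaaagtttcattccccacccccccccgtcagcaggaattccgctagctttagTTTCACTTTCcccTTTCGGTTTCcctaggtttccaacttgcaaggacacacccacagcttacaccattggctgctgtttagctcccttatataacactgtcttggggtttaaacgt
ISG15, chr1:1013247-1013496, plus strand: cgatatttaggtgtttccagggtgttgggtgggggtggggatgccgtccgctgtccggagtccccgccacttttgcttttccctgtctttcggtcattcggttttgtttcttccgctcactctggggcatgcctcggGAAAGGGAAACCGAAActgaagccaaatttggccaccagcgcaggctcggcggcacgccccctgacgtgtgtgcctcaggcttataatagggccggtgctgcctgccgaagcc

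The sequences of IFI44L, IFI44 and IFI6 belong to genes that were higher in PARK2 cells, that of IFIT5 to one that was lower, and those of IFIT1 and ISG15 to genes that passed the test in neither direction. The IFI44L run holds 2 matches, one in each copy of a stretch that occurs again nearly unchanged further along. IFI6 holds 3 matches, IFIT5, IFIT1 and ISG15 hold 2 each, and IFI44 holds 1. The 2 matches in ISG15 overlap. Of the 57 members 45 had a promoter in the table, and the core, searched on both strands, was present in 22 of them (48.9%), against 839 of 27305 promoters of the same length (3.07%). It was present in 7 of 11 members that were higher, 3 of 4 that were lower and 10 of 25 that passed in neither direction. The shorter element AANNGAAA, which every match to the core contains, was present in 33 of the 45 (73.3%) and in 20.6% of all promoters. The GAS element TTCNNNGAA, known from interferon gamma targets, was present in 11 of 45 (24.4%) and in 6.78% of all. Among called members GBP3, IRF9, SP110, XAF1 and MX1 had no match to the core in this window. A match describes letters only.

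The set did not move as one between PARK2 and control cells. Of 49 members tested 11 were higher in PARK2 cells and 6 were lower, while 32 passed in neither direction. A gene was called where limma's test gave an adjusted p (Benjamini-Hochberg, over all genes) under 0.05. The 17 called members are 34.7% of those tested, against 28.8% of all 13720 genes. By direction, 22.4% of the members were higher and 12.2% lower, against 13.3% and 15.6% of all genes. In bulk RNA a change in the share of cells that express a gene and a change per cell cannot be told apart. Fold changes are PARK2 over control on a log2(intensity + 16) scale, where 16 is a pseudocount, so they understate the change of dim genes. The members' median was 0.03 on this scale, against -0.0026 over all genes, and their quartiles were -0.20 and 0.37. Called changes of at least 1.5-fold numbered 7 higher (14.3% of members, against 7.75% of all genes) and 3 lower (6.12%, against 9.41%). At 2-fold there were 2 higher members (4.08%, against 3.14%) and 0 lower ones (2.45% of all genes). The change of IFI44L, 3.31, stood far from the next member, IFI44, at 1.05.

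**Figure D1:**
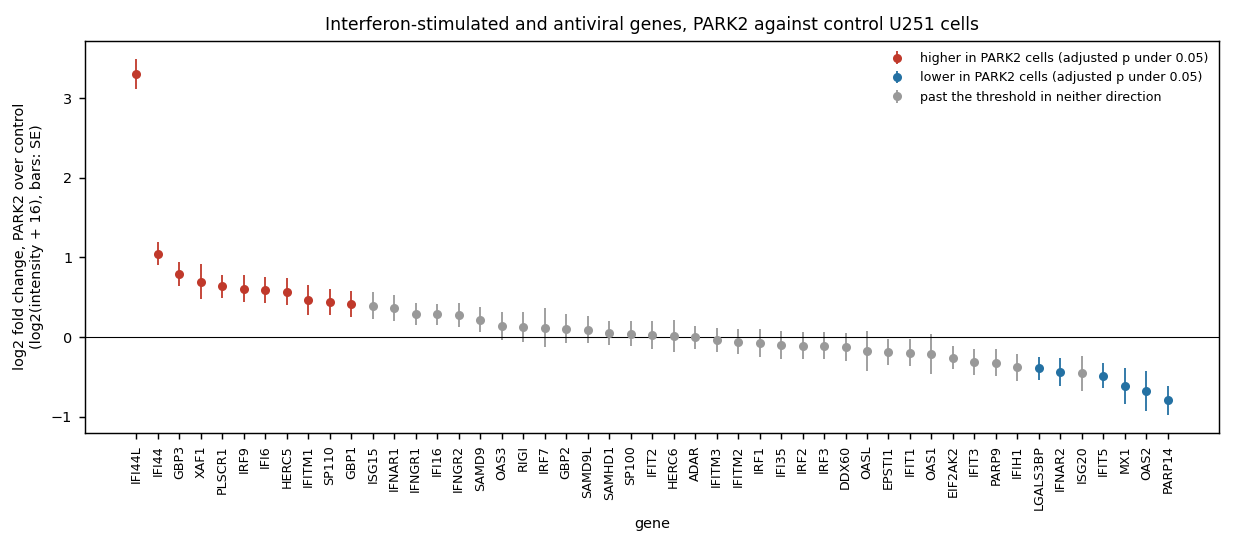
Log2 fold change of PARK2 over control cells (y axis, on log2(intensity + 16), bars are standard errors) for the 49 members tested, ordered by change along the x axis and coloured by limma's call at an adjusted p of 0.05. IFI44L stands alone at 3.31, the other 10 higher members run from 0.42 to 1.05, and the 6 lower ones from -0.79 to -0.39.

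IFI44L and IFI44 are neighbouring genes on chromosome 1 that code for related, interferon-induced proteins. IFI44L was at 212, 242 and 257 intensity units on PARK2 replicates 1 to 3, against 15.6, 6.81 and 6.87 on control replicates 1 to 3. All 3 PARK2 arrays read it clearly, while 2 of the 3 control arrays lay under the lowest mean intensity that was tested, 9.96. Its change was 3.31 (SE 0.19, limma's adjusted p 1.2e-23), and the size depends on the pseudocount, with 4.56 for 1 and 2.03 for 64. IFI44 was at 718, 683 and 729 on PARK2 arrays, against 377, 328 and 304 on control arrays. The groups did not overlap, and its change was 1.05 (SE 0.15, adjusted p 5.1e-08). A dimmer IFI44 probe set rose as well, by 0.78 (adjusted p 0.013 in a fit of every probe set by itself).

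The genes next to this pair were looked at after the members' values were seen, and they were often higher too. Of the 10 nearest tested genes of IFI44L, 5 on each side in the order of RefSeq's gene table, 6 were higher, IFI44 included, and 0 lower. Over all genes 13.3% were higher and 15.6% lower. PTGFR, the prostaglandin F receptor, was at 63.95, 62.8 and 59.1 on PARK2 arrays, against 0.419, 3.86 and 1.48 on control arrays (2.13, adjusted p 3.2e-12, or 4.61 and 0.93 with pseudocounts 1 and 64). ADGRL2, an adhesion receptor on the other side of IFI44, was at 98.9, 130 and 127 on PARK2 arrays, against 4.69, 1.19 and 8.15 on control arrays (2.71, adjusted p 1.3e-17, or 4.62 and 1.41 with the same pseudocounts). Both genes were thus near the floor of the array in control cells, as IFI44L was, and neither is a member of the set. The heat shock co-chaperone gene DNAJB4 (0.72), TTLL7 (0.78) and MIGA1 (0.56) were higher as well, the last of these not without _x_at and _s_at probe sets (0.29, adjusted p 0.208). NEXN (-0.09), FUBP1 (-0.10), PRKACB (0.03) and SAMD13 (-0.36) passed in neither direction. Runs in a single direction were also seen around other members. Among the 10 nearest, ISG20 had 8 lower and 0 higher, and EIF2AK2 7 lower and 0 higher. DDX60 had 5 higher and 0 lower, and PARP9 5 lower and 0 higher. Members with fewer than 5 neighbours called in a single direction are not listed. The part that a gene's place on the chromosome has in the change of IFI44L was not tested.

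The interferon-induced GTPases gave values in both directions. GBP3, a guanylate-binding protein, was at 608, 578 and 651 on PARK2 arrays, against 416, 329 and 303 on control arrays. Its lowest PARK2 value was well above its highest control value, and its change was 0.79 (SE 0.15, adjusted p 3.2e-05). GBP1, a relative that is a classical target of interferon gamma, was called higher at 0.42 (adjusted p 0.043), though control replicate 1, at 491, lay above 2 of the 3 PARK2 arrays, at 467 and 470. GBP2 was at 0.11 (adjusted p 0.743). These 3 genes lie beside GBP4 (-0.06, adjusted p 0.898) and GBP5 on chromosome 1, and GBP5 fell by 1.36 on the log2 scale. The order along the chromosome was GBP3, GBP1, GBP2, GBP4 and GBP5. The next tested genes past the lower GBP5, LRRC8B (1.82) and LRRC8C (1.19), were higher. MX1, a dynamin-like GTPase that blocks viruses, was at 20.1, 13.2 and 11.4 on PARK2 arrays, against 38.1, 22.4 and 34.1 on control arrays. It was dim in both groups, which did not overlap, and its change was -0.62 (SE 0.23, adjusted p 0.031). With pseudocounts of 1 and 64 it was at -1.04 and -0.27. MX2 was too dim to test.

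**Figure D2:**
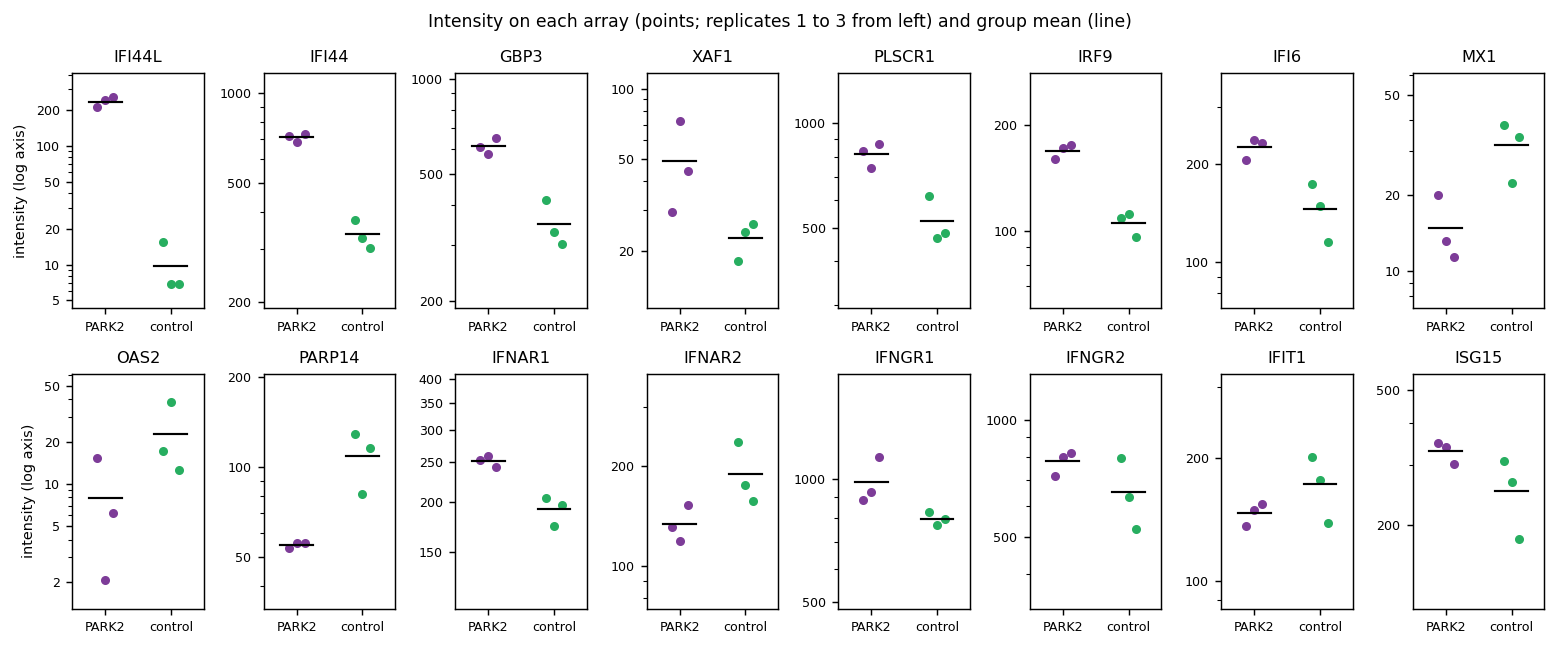
Intensity (y axes, log scale, each panel with its own range) of 16 members on the 3 PARK2 arrays (left of each panel) and the 3 control arrays (right), with group means as lines. IFI44L, IFI44, GBP3, XAF1, PLSCR1, IRF9, IFI6, IFNAR1 and IFNGR1 have every PARK2 point above every control point, though IFNAR1 and IFNGR1 were not called. MX1, PARP14 and IFNAR2 have every PARK2 point below, and OAS2, IFNGR2, IFIT1 and ISG15 overlap between groups.

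Genes for interferon-induced membrane proteins were higher or passed in neither direction. Of 7 in the set 5 were tested, of which 3 were higher and 0 lower. Such counts by kind of gene, here and in the next paragraphs, rest on few genes each. Over all genes 13.3% were higher and 15.6% lower, so 0 or 1 called among so few sets no kind apart. PLSCR1, a phospholipid scramblase that limits virus entry, was at 834, 745 and 871 on PARK2 arrays, against 619, 468 and 481 on control arrays (0.64, SE 0.15, adjusted p 0.00053). The groups were apart, and another PLSCR1 probe set rose by 0.55 (adjusted p 0.035 in the fit of single probe sets). Its neighbour on chromosome 3, PLSCR4, which is no member, was at 124, 127 and 145 on PARK2 arrays, against 6.73, 0.341 and 0.634 on control arrays (3.01, adjusted p 9.9e-20). Its control values lie under the floor, and the change was 5.69 with a pseudocount of 1 and 1.56 with 64. Of the 10 nearest tested genes of PLSCR1 3 were higher and 6 lower.

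IFI6, a mitochondrial and endoplasmic reticulum membrane protein, was at 206, 238 and 232 on PARK2 arrays, against 174, 149 and 115 on control arrays. Every PARK2 array lay above every control array, and the change was 0.59 (SE 0.17, adjusted p 0.0046). IFITM1, which blocks fusion of enveloped viruses, was just past the threshold at 0.46 (SE 0.18, adjusted p 0.049), with 91.8 to 109 on PARK2 arrays, against 51.1 to 90.1 on control arrays. Its relatives IFITM2 (-0.06) and IFITM3 (-0.03) passed in neither direction. The IFITM2 and IFITM3 probe sets are of the _x_at type, which may read more than 1 transcript, and the 3 genes are close copies that the array may not tell apart. BST2, which tethers budding virus, and IFI27 were too dim to test.

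Among genes whose products bind or degrade viral RNA, IFIT5 and OAS2 were called lower and 0 were called higher. Of the 4 IFIT genes, whose products bind foreign RNA ends, 0 were higher and 1 was lower. IFIT5 was at 220 to 252 on PARK2 arrays, against 318 to 355 on control arrays, with no overlap (-0.48, SE 0.16, adjusted p 0.014). A further IFIT5 probe set fell by 0.72 (adjusted p 0.0038 in the fit of single probe sets). IFIT1 (-0.20), IFIT2 (0.03) and IFIT3 (-0.32) lie near IFIT5 on chromosome 10 and passed in neither direction, though every PARK2 array of IFIT3 lay below every control array. IFIT1 was at 137, 149 and 155 on PARK2 arrays, against 202, 177 and 139 on control arrays, which overlap.

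Of the 6 genes of the OAS family and RNA or nucleotide decay 0 were higher and 1 was lower. OAS2, one of the synthetases that activate RNase L, was called lower at -0.68 (SE 0.25, adjusted p 0.036). It was at 15.4, 2.07 and 6.22 on PARK2 arrays, against 17.1, 38.2 and 12.6 on control arrays, so the groups overlapped at the dim end of the array, and the call was lost under quantile normalization (adjusted p 0.087). With pseudocounts of 1 and 64 OAS2 was at -1.58 and -0.26. OAS1 (-0.21), OAS3 (0.14) and OASL (-0.18) passed in neither direction. Another OASL probe set, also dim, went the other way at 0.67 (limma's adjusted p 0.063 in the fit of single probe sets). The exonuclease gene ISG20 was at -0.46 (adjusted p 0.116), with PARK2 arrays below control arrays, and SAMHD1, which depletes the nucleotides that retroviruses need, was at 0.05 (adjusted p 0.849).

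Of the 7 sensors of RNA and DNA 6 were tested, and 0 were called in either direction by limma, while 2 of them, IFI16 and IFIH1, had an unadjusted p under 0.05. IFI16, a DNA sensor, was at 0.29 (adjusted p 0.097). IFIH1, the sensor of long double-stranded RNA also called MDA5, was at -0.38 (adjusted p 0.087). RIGI, which detects RNA ends, was at 0.12, DDX60 at -0.12, the RNA-editing enzyme ADAR at -0.0012 and the kinase EIF2AK2, or PKR, at -0.26. With another of its probe sets EIF2AK2 was lower, at -0.49 (adjusted p 0.035 in the fit of single probe sets). Under quantile normalization 3 sensors passed: IFI16 was higher (0.33, adjusted p 0.0018), and IFIH1 (-0.36, adjusted p 0.021) and EIF2AK2 (-0.23, adjusted p 0.048) were lower. DHX58, the third of the RIG-I-like receptors, was too dim to test.

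Of ISG15 and its ligases in the set, 3 were tested, of which HERC5 was higher and 0 were lower. ISG15, a ubiquitin-like protein that is attached to other proteins in interferon-treated cells, was at 349, 339 and 302 on PARK2 arrays, against 308, 268 and 181 on control arrays. The groups overlapped by a narrow margin, and its change of 0.39 missed the threshold (SE 0.17, adjusted p 0.065). HERC5, the main ISG15 ligase in human cells, was higher, at 177, 199 and 202 on PARK2 arrays, against 148, 100 and 129 on control arrays (0.57, SE 0.17, adjusted p 0.0071). Its neighbour HERC6 was at 0.01. No probe set was matched to UBA7L, which was taken as written. Of the rest of the conjugation machinery, UBE2L6, the conjugating enzyme for ISG15, fell to 157 ± 22.6 in PARK2 cells, against 313 ± 57.8 in control cells (SD, n = 3 each, limma's adjusted p 7.8e-06). TRIM25, a ligase with ISG15 and ubiquitin activity, fell by 0.65 on the log2 scale (adjusted p 0.0046), with arrays that overlapped. Of 3 such genes tested 0 were higher and 2 were lower. The call of TRIM25 was lost without PARK2 replicate 1, where its change was -0.33 (adjusted p 0.243), and under quantile normalization (adjusted p 0.055).

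Among the other induced effectors 4 were higher and 2 lower of 12 tested. XAF1, which counters inhibitors of apoptosis, was at 29.5, 72.9 and 44.2 on PARK2 arrays, against 18.1, 24.0 and 26.2 on control arrays (0.69, SE 0.22, adjusted p 0.011). The lowest PARK2 array lay just above the highest control array. A second XAF1 probe set was at 56.7 ± 5.38 in PARK2 cells and 14.3 ± 12.2 in control cells (SD, n = 3 each), a rise of 1.35 (limma's adjusted p 0.0010 in the fit of single probe sets), and the dimmest one was at -0.04 (adjusted p 0.937). With pseudocounts of 1 and 64 the brightest one was at 0.99 and 0.36. SP110, a nuclear body protein, rose by 0.44 (adjusted p 0.033) on its brightest probe set and by 0.67 and 0.68 on 2 others of its 5 past the filter. In the fit of single probe sets the brightest one of SP110 just missed the threshold (limma's adjusted p 0.051). Its relative SP100 was at 0.04.

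PARP14, an ADP-ribosyltransferase, was the member with the largest fall. It was at 53.6, 55.6 and 55.7 on PARK2 arrays, against 129, 81.0 and 116 on control arrays (-0.79, SE 0.18, adjusted p 0.00051). The PARK2 arrays were close together and all below the control arrays. With its 2 probe sets averaged, one of them near the floor, PARP14 was at -0.39 (adjusted p 0.106). Its neighbour on chromosome 3, PARP9, was at -0.32 (adjusted p 0.147). LGALS3BP, a secreted glycoprotein, was lower at -0.39 (adjusted p 0.035), with 858 to 921 on PARK2 arrays, against 932 to 1503 on control arrays. SAMD9 (0.22), SAMD9L (0.09), EPSTI1 (-0.19) and IFI35 (-0.10) passed in neither direction, though a dimmer EPSTI1 probe set was lower (-0.57, adjusted p 0.035 in the fit of single probe sets), and RSAD2, or viperin, was too dim to test. No probe set of its own was matched to IFI30, which is not analysed here.

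Of the transcription factors 1 was higher and 0 lower of 5 tested. IRF9, the DNA-binding subunit of the type I interferon complex, was at 160, 172 and 176 on PARK2 arrays, against 109, 112 and 96.4 on control arrays. The groups were well apart, and the change was 0.61 (SE 0.17, adjusted p 0.0036). STAT2, its partner, is not analysed here. IRF1, which interferon gamma induces, was at 103, 109 and 128 on PARK2 arrays, against 147, 113 and 103 on control arrays (-0.07, adjusted p 0.818). IRF3, which viral RNA sensors activate, was at 124, 115 and 140 on PARK2 arrays, against 126, 166 and 124 on control arrays (-0.11, adjusted p 0.704). Both overlapped between groups, as did IRF2, at -0.11. IRF7, the amplifier of type I interferon genes, was near the floor at 10.1, 9.18 and 19.03 on PARK2 arrays, against 10.1, 9.28 and 11.5 on control arrays (0.11, adjusted p 0.792).

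Of the 4 receptor subunits 1 was lower and 0 were higher. IFNAR2 was at 131, 119 and 152 on PARK2 arrays, against 236, 175 and 157 on control arrays (-0.44, SE 0.17, adjusted p 0.044). The highest PARK2 array lay just under the lowest control array. IFNAR1 was at 253, 259 and 243 on PARK2 arrays, against 205, 174 and 197 on control arrays. These groups did not overlap either, with PARK2 above control, but its change of 0.37 missed the threshold (SE 0.16, adjusted p 0.080). In the fit of single probe sets another IFNAR1 probe set was higher, at 0.54 (adjusted p 0.040), while the remaining IFNAR1 probe sets, both dimmer, were at -0.10 and -0.43 and passed in neither direction. For IFNAR2 the brightest probe set, which gave the call above, missed the threshold in that fit (adjusted p 0.093). Another IFNAR2 probe set was lower, at -0.51 (adjusted p 0.041), and the last one was at -0.41 (adjusted p 0.153).

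IFNGR1 was at 887, 930 and 1132 on PARK2 arrays, against 827, 769 and 799 on control arrays (0.29, adjusted p 0.129). IFNGR2 was at 717, 804 and 821 on PARK2 arrays, against 796, 633 and 522 on control arrays (0.28, adjusted p 0.175). The 2 interferon gamma subunits thus missed the threshold, and only IFNGR1 had groups apart. IFNAR2, IL10RB, IFNAR1 and IFNGR2 stand side by side on chromosome 21. IL10RB, a subunit shared by the receptors for interleukin 10 and interferon lambda, was higher at 0.45 (adjusted p 0.019), next to the lower IFNAR2.

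**Figure D3:**
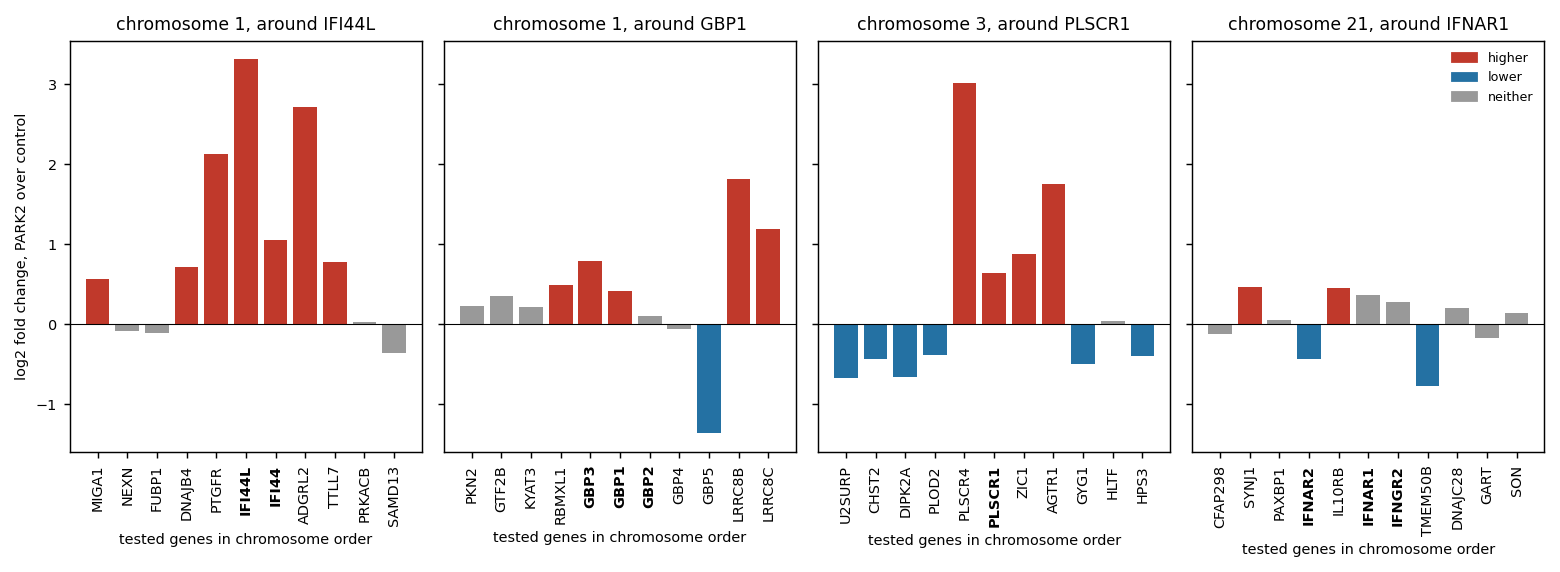
Log2 fold change of PARK2 over control cells (y axis) for 4 members and the 5 nearest tested protein-coding genes on each side, in chromosome order along the x axes, with members in bold and bars coloured by limma's call. The stretch around IFI44L holds 7 higher genes and 0 lower ones, while those around GBP1, PLSCR1 and IFNAR1 hold both.

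Counting every probe set, the members had 95 past the filter, the 49 used above included. In the fit of single probe sets 14 of the 95 were higher and 6 lower, against 9.1% and 11.3% of all 26603 probe sets. Of the 46 not used above 6 were higher and 4 lower. The probe sets behind the calls of GBP1, IFITM1, SP110, IFNAR2, LGALS3BP, MX1 and OAS2 missed the threshold in this fit (limma's adjusted p 0.051 to 0.110). Of the 49 members 26 had more than 1 probe set past the filter. In 16 of these all probe sets had the same sign, and in 0 were there calls in opposite directions. The groups did not overlap for 23 of 49 members (46.9%), against 39.5% of all genes. With PARK2 above control there were 13 members (26.5%, against 18.3% of all genes), and with PARK2 below there were 10 (20.4%, against 21.1%).

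Single arrays bore on many of these calls. Control replicate 1 was the highest of the 6 arrays for 24 of 49 members (49%), against 45.5% of all genes, and its 2% trimmed mean was 168, against 137 to 155 on the others. Under quantile normalization it was highest for 18 members (36.7%, against 23.4% of all genes). Without it 15 members were higher and 2 lower, where 20.5% of all genes were higher and 13.2% lower. Without control replicate 3 those counts were 9 and 8, where 10.8% of all genes were higher and 19.1% lower. Without PARK2 replicate 2 there were 7 and 2, and without control replicate 2 also 7 and 2. Without PARK2 replicate 1 there were 9 and 3, and without PARK2 replicate 3 there were 8 and 3. Under these 4 fits 8.8% to 10.7% of all genes were higher and 11.3% to 13.0% lower.

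The members that kept their call whichever array was left out were IFI44L, IFI44, GBP3, PLSCR1, IRF9 and IFI6, which were higher, and PARP14, which was lower. HERC5 lost its call without control replicate 2 (adjusted p 0.127). XAF1 lost its call without PARK2 replicate 2 (0.44, adjusted p 0.231) or control replicate 1 (adjusted p 0.090), and IFIT5 without PARK2 replicate 1 (adjusted p 0.085) or control replicate 2 (adjusted p 0.093). SP110 lost its call without PARK2 replicate 2, PARK2 replicate 3 or control replicate 2 (adjusted p up to 0.180). IFNAR2 lost its call without PARK2 replicate 1, PARK2 replicate 2, control replicate 1 or control replicate 2 (adjusted p up to 0.224, with -0.28 without control replicate 1). MX1 lost its call without PARK2 replicate 2, PARK2 replicate 3, control replicate 1 or control replicate 3 (adjusted p up to 0.130). OAS2 lost its call without PARK2 replicate 2, PARK2 replicate 3 or control replicate 1 (adjusted p up to 0.203), and was under the filter without control replicate 2. GBP1 and IFITM1 kept theirs without control replicate 1 alone (otherwise adjusted p up to 0.236 and 0.261), and LGALS3BP without control replicate 3 alone (otherwise up to 0.155, with -0.22 without control replicate 1).

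The rest of the interferon system was described by lists of genes outside the set. Interferon genes themselves were near the floor. Of 13 with a probe set 12 were below the filter, between 0.517 and 15.0 on PARK2 arrays and between 0.447 and 15.7 on control arrays, and the one tested, IFNL2, was at 14.6, 18.0 and 16.3 on PARK2 arrays, against 10.8, 11.2 and 13.1 on control arrays (0.22, adjusted p 0.550). Of 6 receptor-proximal kinases, STATs and further receptors 2 were higher and 2 lower (33.3% each), against 13.3% and 15.6% of all genes. IFNLR1, the specific receptor subunit for interferon lambda, was dim and lower, at 11.4, 16.5 and 15.0 on PARK2 arrays, against 53.7, 54.2 and 31.1 on control arrays (-1.02, adjusted p 0.00017), a change that became -1.60 with a pseudocount of 1 and -0.49 with 64. The kinase gene JAK2 was at 0.48 (adjusted p 0.046) and STAT3 at -0.37 (adjusted p 0.031). JAK2 passed without control replicate 1 but under no other left-out array (adjusted p up to 0.211), and STAT3 passed without control replicate 1 or 3 alone (otherwise up to 0.136). IL10RB lost its call without PARK2 replicate 2, PARK2 replicate 3 or control replicate 2 (adjusted p up to 0.135).

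Of 16 sensors and adaptors tested 2 were higher and 2 lower (12.5% each), against 13.3% and 15.6% of all genes. TLR3, a receptor for double-stranded RNA in endosomes, was at 47.3, 44.1 and 54.7 on PARK2 arrays, against 14.7, 20.5 and 20.3 on control arrays (0.91, adjusted p 0.00046), or 1.36 with a pseudocount of 1 and 0.45 with 64. The adaptor TANK was higher too, at 0.80. RNASEH2B (-0.80) and RNASEH2C (-0.81), subunits of the enzyme that removes RNA from RNA-DNA hybrids, were lower, but with its probe sets averaged RNASEH2B was at -0.11 (adjusted p 0.664). Of 10 negative regulators 4 were higher (40%) and 1 lower (10%), against 13.3% and 15.6% of all genes. SOCS3, an inhibitor of JAK kinases, rose by 0.68, and PIAS3 (0.50) and PIAS4 (0.47) were called higher. Their relative PIAS1 went the other way, at -0.42, and just missed the threshold (limma's adjusted p 0.0502). Every PARK2 array of PIAS1 lay below every control array. PTPN2, a phosphatase of JAK and STAT proteins, fell by 0.86 on the log2 scale. With their probe sets averaged SOCS3 (0.33, adjusted p 0.111) and PTPN2 (-0.34, adjusted p 0.092) missed the threshold. PIAS3 lost its call without PARK2 replicate 2 or control replicate 2 (adjusted p up to 0.152), and PIAS4 without PARK2 replicate 2, PARK2 replicate 3 or control replicate 2 (up to 0.182).

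Of 52 other interferon-stimulated genes outside the set 6 were higher (11.5%) and 10 lower (19.2%), with a median of -0.04. These shares were near the 13.3% and 15.6% of all genes. The lists overlap, and UBE2L6, given above with ISG15 conjugation, is counted among these 10 as well. GBP5 was at 142, 174 and 164 on PARK2 arrays, against 498, 407 and 408 on control arrays (-1.36, SE 0.16, adjusted p 1.5e-10). The nucleotidase gene NT5C3A was at 1281, 1401 and 1706 on PARK2 arrays, against 650, 718 and 629 on control arrays (1.11, SE 0.14, adjusted p 2.2e-09). TRIM22, an antiviral ligase, was higher at 0.96. LY6E, a surface protein, was called lower at -1.36. It was at 1.26 to 2.70 on PARK2 arrays, all under the floor, against 16.3 to 60.6 on control arrays, and with a pseudocount of 64 it was at -0.54.

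**Figure D4:**
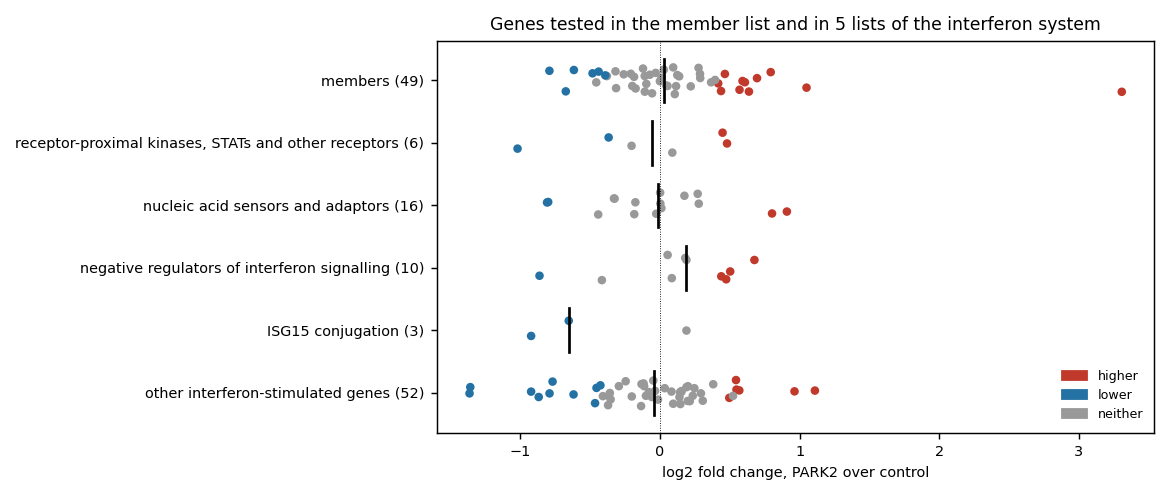
Log2 fold change of PARK2 over control cells (x axis) for the genes tested in the set and in 5 further lists of the interferon system, with the number of genes tested in brackets, medians as black lines and points coloured by limma's call (vertical scatter within a list has no meaning). Each list but ISG15 conjugation, with 2 lower genes of 3, holds both higher and lower genes.

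The cells' identity was checked against lists of marker genes. The astrocytic glioma markers GFAP, VIM, NES, CD44, SOX2 and S100B were past the filter. S100B was lower in PARK2 cells (-1.39), GFAP and SOX2 were called higher (0.53 and 0.30), and the brightest probe set of VIM was at 8527 or more on all 6 arrays. With its probe sets averaged GFAP was at -0.03 (adjusted p 0.943), and it lost its call without PARK2 replicate 2 or control replicate 2 (adjusted p up to 0.123), and SOX2 kept its call without control replicate 1 alone. The summed intensity of 5 microglia and macrophage markers was 37.8 to 62.9 on PARK2 arrays and 40.6 to 47.8 on control arrays, that of 4 lymphocyte markers 41.0 to 46.8 and 15.9 to 60.3, and that of 3 plasmacytoid dendritic cell markers 9.17 to 10.1 and 7.78 to 16.01. That of 4 endothelial markers was 99.5 to 148 on PARK2 arrays and 110 to 120 on control arrays. Most of the endothelial sum was KDR, at 64.3 to 103 on PARK2 arrays and 67.1 to 80.7 on control arrays. The defining marker PTPRC was at 11.02 or less on all 6 arrays. By limma 0 of the 5 markers of these types that were tested passed in either direction, also at an unadjusted p under 0.05.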

How the data were processed

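Total RNA from 6 U251 samples was hybridised to Affymetrix arrays. The authors deposited 1 linear intensity per probe set and array. Per the submitters' processing notes the software was GCOS and MAS5, without version or scaling target, so how arrays were scaled to each other is not known. Medians of the arrays lay between 16.2 and 19.3 intensity units.

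Of 54675 probe sets 62 were control probe sets, 1801 named several genes in GEO's platform annotation, 11715 were unnamed there and 41097 named 1 gene. These were looked up by gene number in RefSeq's table (GRCh38.p14), which updated 0 symbols. That table was otherwise used only for gene order, and its coordinates are given for promoters alone. Of the members without a probe set of their own, IFI30, STAT2 and UBA7L are not analysed here. The transgene's own level is not reported here, so group labels stand unchecked.

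The intensities were turned into log2(intensity + 16) without further normalization. Probe sets with 1 gene symbol and a mean at or above the 40th percentile were kept (26603), and each gene was represented by its brightest one (13720 genes). PARK2 was compared with control in R 4.3.3 by limma 3.58.1, fitting a trend of variance on intensity, with Benjamini-Hochberg adjustment at 0.05. There were 4 residual degrees of freedom and 60.8 prior ones (10.5 without the trend), so the smallest p-values lean on the variance model. The steps were tested on simulated data with independent noise and no differences between whole arrays. That test therefore does not bear on calls that depend on single arrays. Members, gene lists and alternatives were chosen with earlier results of these data known. Values on all 6 arrays were given for called members that changed 1.5-fold or more and for the receptors, IRF1, IRF3, IRF7 and IRF9, and up to 4 genes were named per further list. Values given for other members, GBP4, IFNL2, PIAS1 and neighbouring genes were chosen after they were seen. Arrays of a group correlated at 0.984 to 0.988 (Pearson's r) and arrays of different groups at 0.969 to 0.973, so no array was a copy of another. Precision is limited by having 3 arrays a group.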

Additional observations from a re-analysis of the deposited data

How the results depend on the processing

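The main counts were 11 members higher and 6 lower. The higher count was 19 with array weights (where 24.4% of all genes were higher, against 13.3% without weights). It was 7 without _x_at and _s_at probe sets (36 members tested, 12.5% of all genes) and 7 at an adjusted p of 0.01 (8.85% of all genes). The lower count was 2 without the filter (where 8.11% of all genes were lower, against 15.6% with it) and 3 without the intensity trend (13.0%). It was 3 as the mean of the probe sets (13.7%) and 1 at an adjusted p of 0.01 (10.8%). When single arrays were left out, the higher count ran from 7 to 15 and the lower count from 2 to 8. The other alternatives (pseudocounts, normalization, a stricter filter) left both counts within 1.5 times, with 16 and 8 under quantile normalization, where 19.3% and 18.6% of all genes were called. With a replicate block, 8 members were higher and 4 lower, where 11.3% of all genes were higher and 13.8% lower. Same-numbered arrays deviated together by r of 0.168, 0.0453 and 0.0649 across genes, and the labels give no pairing, so the numbers were not taken as pairs. Over 19 alternatives IFI44L, IFI44, GBP3, IRF9 and IFI6 kept their call throughout, as did PLSCR1 over the 18 in which it was tested (it has no other probe set past the filter without _x_at and _s_at ones), 0 members were called in the opposite direction, and 20 of the 32 others were called under none. Of the other 12, ISG15, IFNAR1, IFNGR1, IFNGR2 and IFI16 were higher under quantile normalization, and IFIH1, EIF2AK2 and PARP9 were lower. Averaging its probe sets put GFAP at -0.027. The causes were not tested. All genes split into 45.9% higher among calls, against 60.7% without control replicate 1 and 36.1% without control replicate 3. Genes near the floor of the array, such as OAS2 and MX1, are limited by signal over background.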
